A study of Mus musculus with 12 samples.

Results

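The FGF receptors were read on 19 of the 62976 features of a one-colour Agilent mouse array. They were all the features whose platform annotation names Fgfr1 (3 features), Fgfr2 (11 features), Fgfr3 (2 features), Fgfr4 (2 features) or Fgfrl1 (1 feature), which are 5 of the 20738 genes named on the array, and every feature was kept apart. The gene identifiers are 14182 for Fgfr1, 14183 for Fgfr2, 14184 for Fgfr3, 14186 for Fgfr4 and 116701 for Fgfrl1. The study examined embryonic mouse lungs (E12.5) of strain C57bl/6J after the ligands of FGFR2b were blocked or FGF10 was induced, with 3 arrays in each of 4 groups. Loss-of-function (LOF) lungs were Rosa26rtTAtet(O)solubleR2b with doxycycline for 6 h (LOF 6 h) or 9 h (LOF 9 h). Gain-of-function (GOF) lungs were Rosa26rtTAtet(O)fgf10 with doxycycline for 9 h (GOF 9 h). Control lungs are labelled wild-type and untreated, whereas the methods describe treated littermates that carried the rtTA driver without the decoy transgene, and this difference between the sources was not settled. The paper's results state that 2 control lungs were taken at 6 h and 1 at 9 h. Each comparison with control therefore sets a group of a single time against a mixed one. The driver sits in the ubiquitous Rosa26 locus, so the driver did not restrict the decoy to the lung epithelium. Nothing in the labels names separate litters or mothers, so p-values measure the spread between these arrays.

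FGF receptors are receptor tyrosine kinases of the cell surface that pair up when an FGF and heparan sulfate bind their outer part, and then phosphorylate adaptors that start the MAPK and PI3K pathways. Alternative splicing of the third immunoglobulin-like domain of Fgfr1, Fgfr2 and Fgfr3 gives an epithelial form (b) and a mesenchymal form (c) with different ligands. In the lung bud, FGF10 from the mesenchyme acts on FGFR2b of the epithelium and drives the growth of new branches. Soluble FGFR2b is the outer part of this receptor joined to an immunoglobulin chain, and it binds ligands before they reach the cell. The annotation pairs all features of a receptor with the same transcript record and gives no splice form. Whether a feature reads the b form, the c form or both is therefore not known, and the values are given by gene.

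All levels are log2 intensities, on which a difference of 1 is a 2-fold change, and differences are given with the standard error (SE) of limma, the moderated linear model. Correlations between arrays over all features were 0.972 to 0.981 within a group and 0.966 to 0.980 between groups. Among markers, 10 of 10 general epithelial genes and 11 of 11 lung mesenchymal genes lay above the array median on every array. Several marker lists were uneven between groups. The summed level of the 11 heart genes was 12.3 to 13.5 in control, 13.4 to 14.3 in LOF 6 h, 12.6 to 13.3 in LOF 9 h and 11.2 to 12.1 in GOF 9 h lungs, and 8 of them lay above the array median on every array. Averaged over the list, heart genes at LOF 6 h (7.44 to 8.19) lay above control (6.30 to 7.38). The heart averages at LOF 9 h (6.40 to 7.29) and GOF 9 h (5.65 to 6.47) overlapped control. Neural markers (6 genes) summed to 8.23 to 8.71 at LOF 6 h and 7.68 to 8.02 in control, without overlap. Macrophage markers (7 genes) summed to 10.73 to 10.95 in control and lay higher at LOF 6 h (11.10 to 11.22) and LOF 9 h (11.02 to 11.08) and lower at GOF 9 h (10.59 to 10.68). As a mean of the list, each of these groups overlapped control (6.79 to 7.04). The means were 7.03 to 7.25 at LOF 6 h, 6.87 to 6.99 at LOF 9 h and 6.70 to 6.84 at GOF 9 h. At LOF 9 h the summed epithelial level (13.73 to 13.75) and the endothelial level (11.669 to 11.797) lay above control (13.46 to 13.65 and 11.403 to 11.665). As a mean of the list, both overlapped control. The epithelial mean was 9.71 to 9.83 against 9.69 to 9.82, and only 4 of 10 genes lay above control (median difference -0.10). The endothelial mean was 7.98 to 8.29 against 7.87 to 7.998, with 8 of 8 genes above control. At GOF 9 h the summed mesenchymal level (15.69 to 15.91) lay below control (15.93 to 16.01), as did its mean (10.604 to 10.701 against 10.824 to 10.885). The endothelial mean at GOF 9 h (7.64 to 7.81) also lay below control (7.87 to 7.998), with 0 of 8 genes above control (median difference -0.22). The summed endothelial level there (11.206 to 11.419) overlapped control (11.403 to 11.665). Of all these marker genes 0 passed the test in any comparison, and the part of these tissues in the receptor values was not tested.

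No receptor passed the test. At an adjusted p under 0.05 with limma (Benjamini-Hochberg over all features or over all genes), 0 of the 19 receptor features and 0 of the 5 receptor genes differed in any of 5 comparisons. Few features of the whole array passed either. The share called was 0.0111% of all features and 0.0723% of all genes for LOF 6 h against control, 0.0222% and 0.0723% for LOF 9 h against control, and 0% and 0% for GOF 9 h against control. It was 0.00635% and 0.0627% for LOF 9 h against LOF 6 h, and 0.0699% and 0.28% for GOF 9 h against LOF 9 h. At an unadjusted p under 0.05, in the same order of comparisons, 1, 0, 1, 2 and 1 of the 19 features and 0, 0, 0, 1 and 0 of the 5 genes were counted. The same count took 7.73%, 5.95%, 5.12%, 8.26% and 7.94% of all features and 9.36%, 7.92%, 5.15%, 10.2% and 11.9% of all genes, so the receptor counts lie near these shares. The first 3 comparisons share their control arrays.

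The features of the family went both ways in every comparison. The median difference of the 19 features was 0.04, -0.01 and -0.05 from control to LOF 6 h, LOF 9 h and GOF 9 h, beside medians over all features of 0.01, -0.001 and 0.0005. For LOF 6 h, LOF 9 h and GOF 9 h, respectively, 10, 8 and 9 of the 19 features lay above control. The median was -0.10 for LOF 9 h against LOF 6 h (9 of 19 above 0, all features -0.02) and 0.15 for GOF 9 h against LOF 9 h (12 of 19 above 0, all features 0.002). Because 11 of the 19 features are of Fgfr2, these medians lean on that gene. Taking the brightest feature for each gene, the 95% intervals of the differences from control lay between -0.66 and 0.64 for all 5 receptors in all 3 comparisons.

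**Figure D1:**
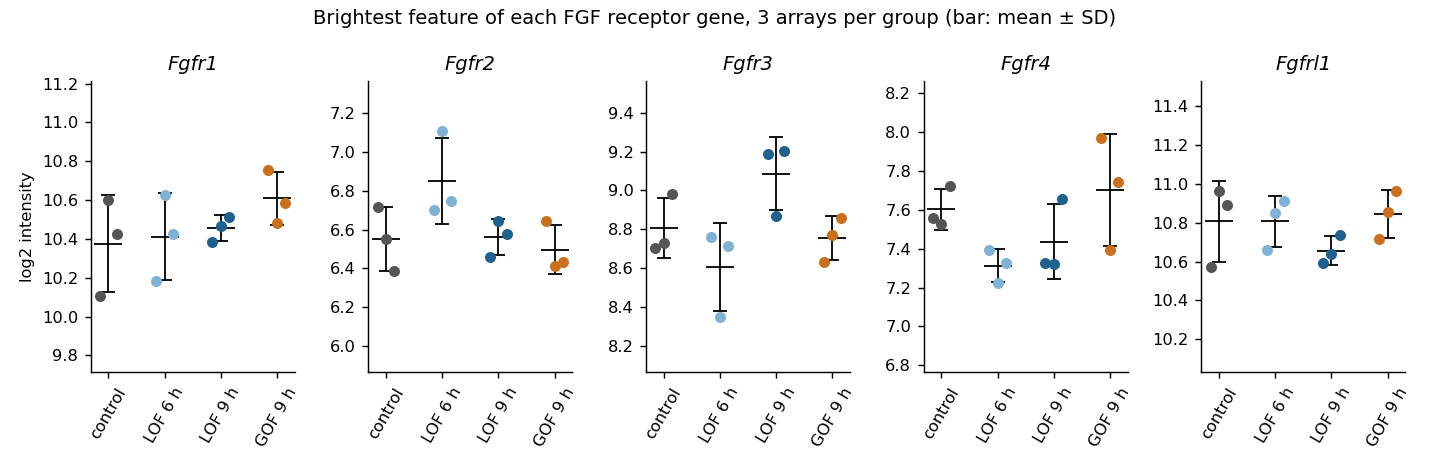
Log2 intensity (y axis; each panel spans 1.5 log2 units around its own centre) of the brightest feature of Fgfr1, Fgfr2, Fgfr3, Fgfr4 and Fgfrl1 on each of the 3 arrays of the 4 groups (x axis), with the mean and SD of the group as bars. Across the 5 comparisons the points separate for Fgfr3 (LOF 9 h above LOF 6 h and above GOF 9 h), Fgfr4 (LOF 6 h below control) and Fgfr2 (LOF 9 h below LOF 6 h), and overlap in every other case.

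Fgfr2 encodes the receptor that the decoy copies in its outer part, so its features are also the nearest check of the LOF label, although the annotation does not say whether any lies in the part that the transgene carries. On its brightest feature, control arrays read 6.71, 6.55 and 6.39, and LOF 6 h arrays read 6.70, 7.11 and 6.75. LOF 9 h arrays read 6.46, 6.64 and 6.58, and GOF 9 h arrays read 6.64, 6.41 and 6.44. The LOF 6 h arrays were the highest group, but the lowest of them lay just under the highest control array. From low to high the groups ran GOF 9 h (6.497 ± 0.13, SD, n = 3), control (6.55 ± 0.16), LOF 9 h (6.56 ± 0.09) and LOF 6 h (6.85 ± 0.22), and the first 3 overlapped. Fgfr2 differed from control by 0.30 ± 0.15 (SE; interval -0.04 to 0.63) at LOF 6 h, 0.01 ± 0.15 (-0.33 to 0.34) at LOF 9 h and -0.05 ± 0.15 (-0.39 to 0.28) at GOF 9 h, with limma adjusted p = 0.592, 0.995 and 0.999. LOF 9 h was below LOF 6 h without overlap, with a difference of -0.29 ± 0.15 (-0.63 to 0.05, limma adjusted p = 0.559). Both values rest in part on the second LOF 6 h array: without it they were 0.17 and -0.16. GOF 9 h against LOF 9 h gave -0.06 ± 0.15.

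The other 10 Fgfr2 features had mean levels between 4.50 and 5.25 and did not give a common pattern. Averaged within each array, they read 4.89, 4.87 and 4.97 in control, 5.29, 4.91 and 5.09 in LOF 6 h, 4.65, 4.96 and 4.92 in LOF 9 h, and 4.82, 5.18 and 5.02 on GOF 9 h arrays. Every group overlapped control. The average differed from control by 0.19, -0.06 and 0.10 for LOF 6 h, LOF 9 h and GOF 9 h, with exact two-sided permutation p = 0.2, 0.8 and 0.5. LOF 9 h against LOF 6 h gave -0.25 (exact p = 0.3) and GOF 9 h against LOF 9 h gave 0.16 (exact p = 0.4). With 3 arrays against 3, the smallest p possible is 0.1. Of these 10 features, 8, 4 and 5 were above control in the same order of groups.

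A single Fgfr2 feature stood apart, array feature 17200, the ninth in mean level, singled out after its values were seen. It read 4.74, 4.34 and 4.41 in control, 4.88, 5.17 and 5.20 in LOF 6 h, 4.15, 4.63 and 4.19 in LOF 9 h, and 5.10, 5.60 and 5.50 on GOF 9 h arrays. LOF 6 h and GOF 9 h arrays all lay above all control and all LOF 9 h arrays. Its differences from control were 0.59 ± 0.21 (interval 0.12 to 1.06), -0.17 ± 0.21 (-0.64 to 0.30) and 0.90 ± 0.21 (0.43 to 1.37) for LOF 6 h, LOF 9 h and GOF 9 h, with limma adjusted p = 0.541, 0.972 and 0.752. Between the transgenic groups the differences were -0.76 ± 0.21 for LOF 9 h against LOF 6 h (limma adjusted p = 0.318) and 1.08 ± 0.21 for GOF 9 h against LOF 9 h (adjusted p = 0.148). None of these passed over the 62976 features, and the brightest feature differed by only -0.05 in GOF 9 h lungs. The other dim Fgfr2 features differed from control by -0.52 to 0.38 there, in both directions. The annotation does not show whether feature 17200 reads another probe than they do.

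The plot of all Fgfr2 features shows how far they parted. Over 12 arrays, the 45 pairs among the 10 dimmer features had a median Pearson r of 0.13 (-0.54 to 0.57), and 15 pairs were below 0. Their SD within an array was 0.43 on average, while the SD of their mean over the arrays was 0.17. The brightest feature had an r of 0.03 with the mean of the others. The 10 features of Fgf10, the ligand gene of the GOF transgene, gave a contrasting picture on the same arrays: their 45 pairs had a median r of 0.86 (0.68 to 0.97). The 2 sets are not alike in level, with group means of 7.14 to 8.05 for Fgf10 and feature means of 4.50 to 5.25 for Fgfr2. All 10 Fgf10 features also lay higher at LOF 9 h than in control. The part of level and of this shift in the r values was not tested. The pairs share their arrays, so these values are descriptions. The annotation names no probe for a feature, so it does not show whether the 10 Fgfr2 features repeat a single probe. On this array 385 genes had 10 or more features, 0 had 9 and 20353 had 8 or fewer. Per the methods, the authors averaged replicate spots within each array before their tests. Whether the 10 dimmer Fgfr2 features are such spots was not tested.

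**Figure D2:**
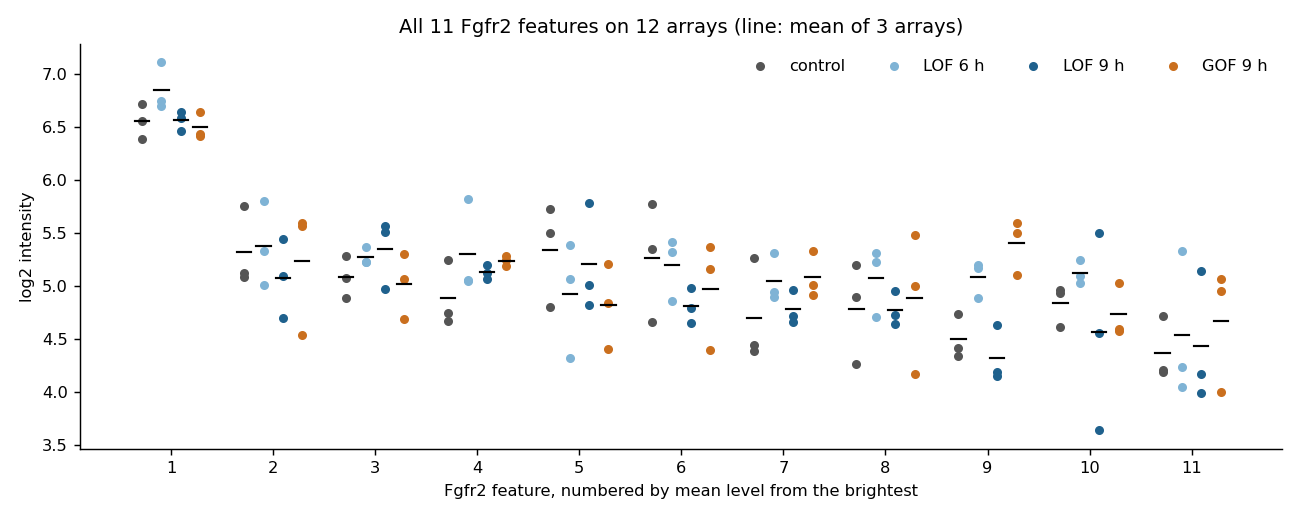
Log2 intensity (y axis) of the 11 Fgfr2 features, numbered by mean level from the brightest (x axis), on the 3 arrays of each group as points, with the group mean as a line. The ninth feature reads 5.10 to 5.60 in GOF 9 h and 4.34 to 4.74 in control lungs, and no other feature separates these groups.

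The Fgf10 features also bear on the GOF label. All 10 read as a mean 7.04, 7.42 and 7.26 in control, 7.42, 7.64 and 7.17 in GOF 9 h, and 7.90, 8.14 and 8.12 in LOF 9 h lungs. The arrays labelled GOF 9 h overlapped control (0.17, exact permutation p = 0.5), whereas the LOF 9 h arrays lay above both groups (0.81 above control, exact permutation p = 0.1, the smallest possible). The paper had already listed Fgf10 among genes that rose at 9 h of the block and not at 6 h. The files do not say whether the 10 Fgf10 features lie in the part of Fgf10 that the transgene carries. The features therefore neither check nor contradict the label, and GOF 9 h stands below for the arrays so labelled.

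Fgfr1, which encodes a receptor mainly of the lung mesenchyme at this stage, read 10.10, 10.60 and 10.43 in control and 10.18, 10.63 and 10.42 in LOF 6 h lungs on its brightest feature. It read 10.38, 10.47 and 10.52 in LOF 9 h and 10.76, 10.48 and 10.59 on GOF 9 h arrays. The means ran from control (10.38 ± 0.25, SD, n = 3) over LOF 6 h (10.41 ± 0.22) and LOF 9 h (10.46 ± 0.07) to GOF 9 h (10.61 ± 0.14), and all neighbours overlapped. The differences from control were 0.04 ± 0.17 (SE; interval -0.33 to 0.40), 0.08 ± 0.17 (-0.29 to 0.45) and 0.23 ± 0.17 (-0.13 to 0.60) for LOF 6 h, LOF 9 h and GOF 9 h, with limma adjusted p = 0.967, 0.957 and 0.976. The second feature (6.01 to 6.80 over the 12 arrays) separated GOF 9 h from control, at 6.63, 6.58 and 6.80 against 6.44, 6.56 and 6.11, with a difference of 0.30 ± 0.22 (limma adjusted p = 1). The third feature (3.25 to 4.77) had a difference of -0.17 ± 0.37 there, so the direction in GOF 9 h lungs was not shared by all 3 features.

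Fgfr3, which encodes a receptor with b and c forms like those of Fgfr2, held the largest difference between groups among the 5 genes. Its brightest feature read 8.76, 8.35 and 8.72 in LOF 6 h and 9.19, 8.87 and 9.20 in LOF 9 h lungs. Control arrays read 8.71, 8.73 and 8.98, and GOF 9 h arrays read 8.63, 8.77 and 8.86. The LOF 9 h arrays lay above all LOF 6 h and all GOF 9 h arrays and overlapped control. LOF 9 h exceeded LOF 6 h by 0.48 ± 0.16 (SE; interval 0.12 to 0.83), a fold of 1.39, and its interval did not hold 0, but the limma adjusted p was 0.345. GOF 9 h was 0.33 ± 0.16 below LOF 9 h, that is a difference of -0.33 (-0.69 to 0.02, limma adjusted p = 0.455). Against control, the differences were -0.20 ± 0.16 (-0.55 to 0.16), 0.28 ± 0.16 (-0.07 to 0.64) and -0.05 ± 0.16 (-0.41 to 0.30) for LOF 6 h, LOF 9 h and GOF 9 h, with limma adjusted p = 0.764, 0.737 and 0.999. The order of the means was LOF 6 h (8.61 ± 0.23, SD), GOF 9 h (8.75 ± 0.11), control (8.81 ± 0.15) and LOF 9 h (9.09 ± 0.19), and no 2 neighbours were separated. The second Fgfr3 feature lay above the array median of 2.98 on 7 of 12 arrays, ranged from 2.24 to 4.93, and gave 0.23 ± 0.66 for LOF 9 h against LOF 6 h.

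Fgfr4 encodes a receptor that is not spliced into b and c forms. Its brightest feature read 7.56, 7.53 and 7.72 in control and 7.39, 7.22 and 7.32 in LOF 6 h lungs, so all LOF 6 h arrays lay below all control arrays. LOF 9 h arrays read 7.33, 7.32 and 7.66, and GOF 9 h arrays, the most scattered group, read 7.97, 7.39 and 7.74. Fgfr4 gave -0.29 ± 0.17 (SE; interval -0.66 to 0.08), -0.17 ± 0.17 (-0.54 to 0.20) and 0.10 ± 0.17 (-0.27 to 0.47) against control for LOF 6 h, LOF 9 h and GOF 9 h, with limma adjusted p = 0.641, 0.883 and 0.999. GOF 9 h against LOF 9 h gave 0.27 ± 0.17 (-0.10 to 0.64, limma adjusted p = 0.587), and LOF 9 h against LOF 6 h gave 0.12 ± 0.17. From low to high the means ran LOF 6 h (7.31 ± 0.09, SD), LOF 9 h (7.44 ± 0.19), control (7.60 ± 0.11) and GOF 9 h (7.70 ± 0.29), and each neighbour overlapped the next. The second Fgfr4 feature (3.78 to 4.89) gave -0.20 ± 0.30 in LOF 6 h with overlapping groups.

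Fgfrl1 encodes a member of the family whose inner part has no kinase domain. Its only feature read 10.57, 10.96 and 10.89 in control and 10.66, 10.85 and 10.91 in LOF 6 h lungs. It read 10.59, 10.64 and 10.74 in LOF 9 h and 10.72, 10.86 and 10.97 on GOF 9 h arrays. All 4 groups overlapped, and no gene of the family varied less between its group means, which spanned 0.19. Against control, Fgfrl1 gave -0.0005 ± 0.14 (SE; interval -0.32 to 0.32), -0.15 ± 0.14 (-0.47 to 0.17) and 0.04 ± 0.14 (-0.28 to 0.36) for LOF 6 h, LOF 9 h and GOF 9 h, with limma adjusted p = 0.999, 0.867 and 0.999. GOF 9 h against LOF 9 h gave 0.19 ± 0.14 (adjusted p = 0.67). The order of the means was LOF 9 h (10.66 ± 0.07, SD), LOF 6 h (10.81 ± 0.13), control (10.81 ± 0.21) and GOF 9 h (10.85 ± 0.12).

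**Figure D3:**
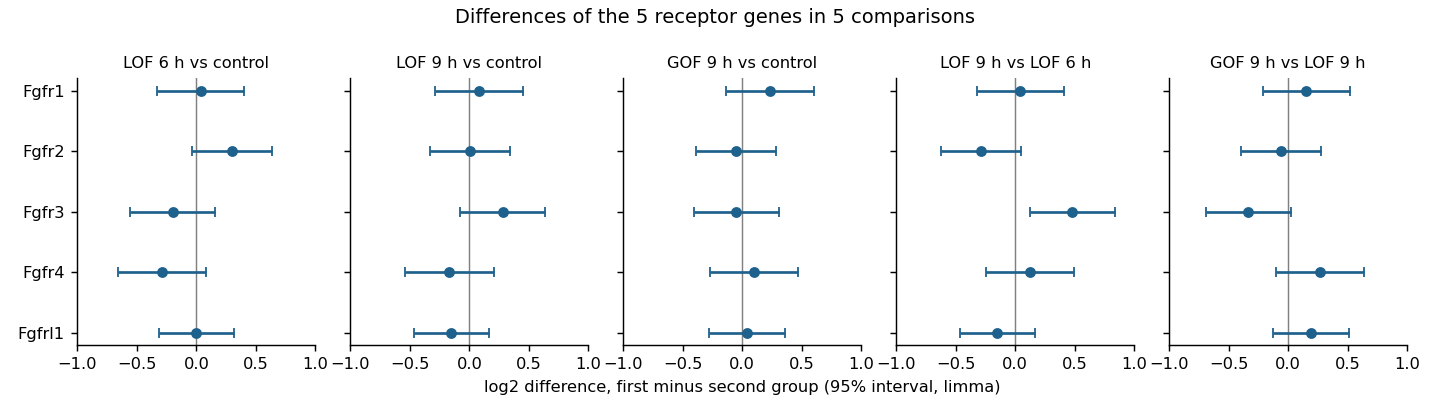
Log2 difference (x axis, first minus second group) of the brightest feature of each receptor gene (y axis) in 5 comparisons, with the 95% interval of limma as bars. Fgfr3 in LOF 9 h against LOF 6 h (0.12 to 0.83) is the only interval without 0.

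Counts of separated groups give the same picture over all features. Against control, the groups did not overlap on 3 of 19 receptor features in LOF 6 h (2 higher, both of Fgfr2, and 1 lower, of Fgfr4), 0 at LOF 9 h and 2 at GOF 9 h (both higher, of Fgfr1 and Fgfr2). Over all features of the array the shares were 13.6%, 12.3% and 9.25%. For LOF 9 h against LOF 6 h the count was 3 of 19 (1 higher and 2 lower) beside 14.7% of all features, and for GOF 9 h against LOF 9 h it was 2 of 19 beside 13.9%. Apart from the 0 in LOF 9 h lungs, these counts lie near the background.

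The spread between arrays of a group depended on the level of a feature. The within-group SD of the 5 brightest receptor features was 0.14 to 0.19, while that of the dim second Fgfr3 feature was 0.92. Over all features, the median within-group SD was 0.53 at levels of 4 to 5 and 0.37 at levels of 5 to 6, each with 5 of the 11 Fgfr2 features, and 0.12 above 10, where Fgfr1 and Fgfrl1 had their brightest features.

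**Figure D4:**
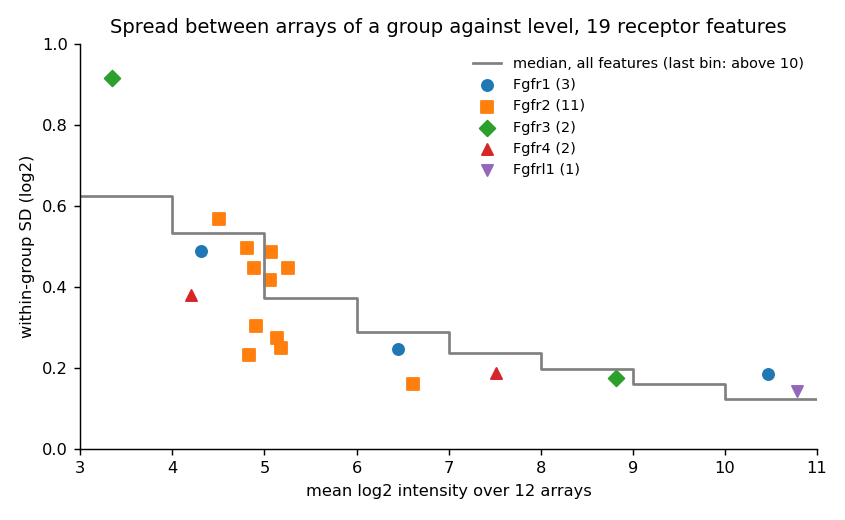
Within-group SD (y axis, log2 units) against the mean log2 intensity over 12 arrays (x axis) of the 19 receptor features, one marker shape for each gene, with the median over all features in each bin of level as a grey line. The SD is 0.92 for the second Fgfr3 feature and 0.14 to 0.19 for the brightest feature of each gene.

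The rest of the pathway was read through 60 genes, all of them measured, in lists of ligands, co-factors, adaptors, splicing factors, inhibitors and transcription targets. Only Etv5, which encodes an ETS family transcription factor switched on by FGF receptors, passed the test. Etv5 read 12.58, 12.54 and 12.87 in control, 10.65, 10.99 and 10.74 in LOF 6 h, 10.29, 10.40 and 10.21 in LOF 9 h, and 12.61, 12.55 and 12.98 on GOF 9 h arrays. All LOF arrays lay well below all others. Etv5 fell by 1.87 ± 0.16 (SE) on the log2 scale at LOF 6 h (limma adjusted p = 0.0031) and fell by 2.36 ± 0.16 at LOF 9 h (adjusted p = 0.000639). With only the 2 compared groups in the fit, Etv5 at LOF 6 h no longer passed (limma adjusted p = 0.0737). It was higher by 2.42 ± 0.16 in GOF 9 h than in LOF 9 h lungs (limma adjusted p = 0.00033) and gave 0.05 ± 0.16 against control. In the same LOF lungs, the intervals of all 5 receptor genes against control stayed within a 2-fold change. In RNA of whole lungs, fewer cells of a type and less RNA per cell cannot be told apart, for the receptors as for Etv5. The 10 general epithelial markers had a median difference from control of 0.03 at LOF 6 h (5 of 10 above 0) and -0.10 at LOF 9 h (4 of 10 above 0), and the 11 mesenchymal markers one of -0.03 and 0.12.

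**Figure D5:**
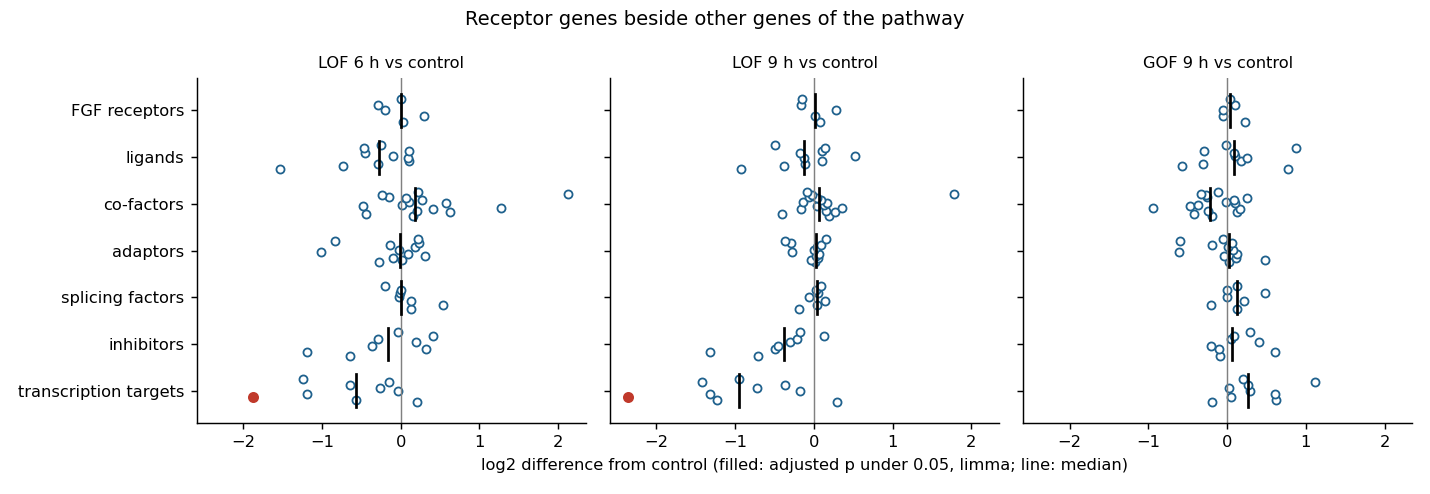
Log2 difference from control (x axis) of the 5 receptor genes and of the genes of 6 pathway lists (rows), in LOF 6 h, LOF 9 h and GOF 9 h lungs, 1 point for each gene (brightest feature), with the list median as a line and filled points at a limma adjusted p under 0.05. Only Etv5 is filled, at -1.87 and -2.36, and the receptors lie between -0.29 and 0.30.

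Among the 9 transcription targets, of which Spry2 and Dusp6 are also on the list of inhibitors, 8 lay below control at LOF 6 h (median -0.57), 8 below at LOF 9 h (median -0.95) and 8 above at GOF 9 h (median 0.27). At an unadjusted p under 0.05 there were 3, 6 and 1, beside 9.36%, 7.92% and 5.15% of all genes, and 1, 1 and 0 passed. The medians over all genes were 0.02, -0.0002 and 0.002. The paper had already named Etv4, Etv5, Shh, Sox9 and Id2 as falling after the block. The LOF counts of this list are therefore a description and not independent support. Of the 8 inhibitors, 5, 7 and 3 lay below control for LOF 6 h, LOF 9 h and GOF 9 h (medians -0.16, -0.38 and 0.07), with 2, 3 and 1 at an unadjusted p under 0.05, and 0 passed. Spry1, a Sprouty inhibitor of receptor signalling, read 8.80, 8.41 and 8.64 in control and 7.82, 7.92 and 8.0 in LOF 9 h lungs, without overlap, a difference of -0.70 ± 0.16 (limma adjusted p = 0.258).

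Upstream of the receptors, 0 of 10 ligand genes passed in any comparison. From control to LOF 6 h, LOF 9 h and GOF 9 h, their medians were -0.27, -0.12 and 0.09, and 1, 0 and 0 had an unadjusted p under 0.05 (all genes 9.36%, 7.92% and 5.15%, here as for the lists that follow). Fgf1, a ligand of all FGF receptor kinases, had the smallest p of the list and scattered widely, reading 5.54, 5.47 and 6.06 in control and 4.79, 2.77 and 4.91 in LOF 6 h lungs (-1.53 ± 0.59, limma adjusted p = 0.453). Fgf10 entered this list by its brightest feature, which gave 0.52 ± 0.24 at LOF 9 h (limma adjusted p = 0.637). That was the smallest rise among its 10 features (0.52 to 0.99). Of the 16 co-factors and binding partners, 12, 10 and 5 lay above control in that order (medians 0.18, 0.07 and -0.21), with 4, 0 and 1 at an unadjusted p under 0.05, and 0 passed. Cdh2, which encodes N-cadherin, a binding partner of FGFR1, read 10.30, 10.43 and 10.22 in control and 10.998, 10.82 and 10.86 in LOF 6 h lungs, without overlap (0.58 ± 0.12, limma adjusted p = 0.165).

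Below the receptors, 0 of 12 adaptor and enzyme genes passed, with medians of -0.0033, 0.02 and 0.02 for LOF 6 h, LOF 9 h and GOF 9 h and 3, 0 and 1 at an unadjusted p under 0.05. Cbl, a ubiquitin ligase that marks activated receptors for breakdown, read 6.16, 6.34 and 6.78 in control and 5.35, 5.51 and 5.92 in LOF 6 h lungs, without overlap (-0.83 ± 0.24, limma adjusted p = 0.303). Among 7 splicing factors of the exon that sets the b or c form, 0 passed and 1, 0 and 0 had an unadjusted p under 0.05 (medians 0.0005, 0.05 and 0.12). Esrp2, an epithelial splicing factor that favours the b form, read 5.75, 6.29 and 5.76 in control and 6.498, 6.58 and 6.35 in LOF 6 h lungs, without overlap (0.54 ± 0.24, limma adjusted p = 0.515). The summed levels of the heart, neural and macrophage markers were also highest in LOF 6 h lungs, and their part in these values was not tested.

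Over the 12 arrays, the receptors had no common course. Among the 10 pairs of receptor genes, Pearson r ran from -0.71 for Fgfr2 with Fgfr3 to 0.53 for Fgfr1 with Fgfrl1. The 3 genes with the most similar values over the arrays, among 10362 genes above the median level, were Polr3b, Hemk1 and Dnajc10 for Fgfr1 (r of 0.92, 0.90 and 0.89), Hspa13, Mgat5b and Mrtfa for Fgfr2 (0.83, 0.82 and 0.82) and Adarb1, Tmbim1 and Gucd1 for Fgfr3 (0.94, 0.88 and 0.87). They were Slc25a37, Zfp488 and Kpna2 for Fgfr4 (0.90, 0.90 and 0.89) and Polr2e, Tex264 and Map9 for Fgfrl1 (0.91, 0.91 and 0.90). These are the highest of 10362 values each over 12 arrays that share their normalization, and they are given as a description.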

How the data were processed

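Whole lungs were profiled as Cy3-labelled total RNA on 12 one-colour Agilent arrays. Per the methods, the authors corrected background with normexp (offset of 1) and quantile-normalized the arrays with limma, and the deposited log2 intensities were used unchanged. No scanner files, probe sequences or genome build were used here. Features were named by the platform annotation, with symbols updated by accession, symbol or synonym (31465 features named, 31511 unnamed). Every feature was fitted, and also 1 feature per gene, that with the highest mean, using limma 3.58.1 in R 4.3.3: group means over all 12 arrays, empirical Bayes, two-sided tests, Benjamini-Hochberg adjustment and a threshold of 0.05. The table has 10 missing values, none in the receptors. Pathway genes were named where they passed the test or had the smallest p of their list against control. The members and lists were chosen with earlier results of these data known. Scripts were tested on simulated data. Alternatives were other filters on dim features, normalization, variance models, array weights, samples, a replicate block and feature averaging. The labels do not say that replicate numbers pair arrays, so the main fit did not pair them, and a replicate block was an alternative. A check of pairing used another measure than the array correlations given above. On it, same-numbered arrays of different groups had r of -0.003 to 0.103 (mean 0.048), and other pairs had a mean r of -0.024. The number of arrays, 3 per group, limits the precision.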

Additional observations from a re-analysis of the deposited data

How the results depend on the processing

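Of 635 receptor values under the alternatives run, 0 passed the threshold. The lowest adjusted p in limma was 0.056, for Fgfr2 array feature 17200 in GOF 9 h against LOF 9 h lungs with only features above the 50th percentile of level. Direction changed in 25 receptor values, all with a size of at most 0.281 as reported. With the mean of all features of a gene, Fgfr1 at LOF 6 h was -0.1527, Fgfr2 was -0.0562 at LOF 9 h, 0.08402 at GOF 9 h and 0.1402 for GOF 9 h against LOF 9 h, Fgfr3 at LOF 9 h was -0.001521 and Fgfr4 at GOF 9 h was -0.04274. With the mean of the other 10 Fgfr2 features, chosen after seeing the data, the Fgfr2 values were -0.06273, 0.09784 and 0.1606. The cause was not tested. Leaving out each array in turn took values across 0 for Fgfr1 at LOF 6 h (-0.1005 to 0.1496), LOF 9 h (-0.05661 to 0.1909) and LOF 9 h against LOF 6 h (-0.07022 to 0.1523), Fgfr2 at LOF 9 h (-0.07312 to 0.09089) and GOF 9 h (-0.1364 to 0.02764), Fgfr3 at GOF 9 h (-0.104 to 0.03717), Fgfr4 at GOF 9 h (-0.03371 to 0.2542), Fgfrl1 at LOF 6 h (-0.1197 to 0.07591) and GOF 9 h (-0.0809 to 0.1147), and Etv5 at GOF 9 h (-0.081 to 0.1514). Fgfr3 in LOF 9 h against LOF 6 h ran from 0.3484 to 0.5874.

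The count of pathway genes that passed depended on the fit. For GOF 9 h against LOF 9 h (1 gene as reported) it was 3 and 7 above the 25th and 50th percentiles of level, 4 with a variance trend and robust settings, 2 with array weights and 1 to 2 without single arrays. For LOF 6 h against control it was 2 above the 50th percentile, 2 with trend and robust settings, 0 with only the compared groups and 1 to 2 without single arrays. Without GOF 9 h replicate 1 it was 2 there, and without control replicate 3 it was 2 for GOF 9 h against LOF 9 h. With trend and robust settings it was 2 for LOF 9 h against control and 1 for LOF 9 h against LOF 6 h. With the replicate number as a replicate block, receptor counts were 0 in all 5 comparisons and pathway counts were 1, 1, 0, 0 and 1, as without it. In the check of pairing, an array correlated best with its own number in 25 of 36 matches to another group of 3 arrays. That is more often than equal odds among 3 arrays would give, although the matches share arrays. The labels give the numbers no shared source, and whether same-numbered arrays share one was not tested. Averaging spots that copy a probe was not run, because the annotation names no probes. Dim features limit the rest: the second Fgfr3 feature lay above the array median on 7 of 12 arrays.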
